A study of Mus musculus with 24 samples.

Results

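The Hox genes of the Hoxa, Hoxb, Hoxc and Hoxd clusters were examined in mouse embryonic stem cells and in embryoid bodies made from them. Members were the rows of the gene table whose symbol was Hoxa, Hoxb, Hoxc or Hoxd followed by a number. They came to 32 of 14737 gene records, with 9 in Hoxa on chromosome 6, 9 in Hoxb on chromosome 11, 7 in Hoxc on chromosome 15 and 7 in Hoxd on chromosome 2 (build mm10). Of the 39 Hox genes of the mouse clusters, Hoxa3, Hoxa6, Hoxb13, Hoxc5, Hoxc12, Hoxd11 and Hoxd12 had no gene record and were not analysed here as genes. Every record of the table had a mean of at least 0.5 FPKM (fragments per kilobase of transcript, scaled to library size) in 1 or more groups, so membership of the table itself depended on the levels.

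The libraries came from 8 groups of 3, formed by 2 genotypes and 4 times of differentiation: Carma3xpA/+ cells at d0, d3, d6 and d10, and wild type (WT) cells at the same days. All cells were of strain 129/Sv. Carma is a gene for a long noncoding RNA on chromosome 2. In the usual notation, Carma3xpA/+ cells carry polyadenylation signals, which stop transcription early, in 1 of its alleles and an intact other allele. Undifferentiated cells (d0) grew on mouse embryonic fibroblast feeders with serum and LIF. At d3, d6 and d10 the samples were embryoid bodies, aggregates started in hanging drops in a medium for cardiac differentiation, and these hold mixed cell types. The design calls the replicates biological, but no label says whether they came from different clones or cultures, and the p-values speak only to the scatter among these libraries.

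Hox genes encode homeodomain transcription factors that give cells their position along the head to tail axis. Genes with a low paralogue number lie toward the 3′ end of their cluster and are switched on early and in anterior tissue, whereas genes with a high number lie toward the 5′ end and follow later and in posterior tissue. In embryonic stem cells the clusters are held under Polycomb repression, and retinoic acid, Wnt and FGF signals and the Cdx factors help to open them. Hox proteins bind DNA together with TALE homeodomain cofactors of the Pbx and Meis families.

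Hox levels were low in these samples. The highest group mean of any member was 6.99 FPKM, that of Hoxb4 in Carma3xpA/+ at d10. In 4 genes the highest group mean reached 5 FPKM, and in 16 it stayed under 2 FPKM. Tests used limma on log2(FPKM + 1). They covered the 13373 genes that reached 1 FPKM in 3 or more libraries, and "called" means a p under 0.05 after Benjamini-Hochberg adjustment over those genes. That filter admitted 27 members and left out Hoxa4, Hoxa5, Hoxc4, Hoxc11 and Hoxd3. Another 5, namely Hoxa7, Hoxa9, Hoxd1, Hoxd8 and Hoxd10, passed it only because of the Carma3xpA/+ d6 libraries. Counts over all 32 members without the filter are therefore given beside the genotype counts and the Carma3xpA/+ steps to and from d6. Differences are on the log2(FPKM + 1) scale, given with their standard error, and they understate the change of genes this low.

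All gene records of a library added up to 245274 to 306848 FPKM, and sequencing depth is unknown. Replicates correlated across genes at 0.9541 to 0.9947. The 2 lowest values, 0.9541 and 0.9586, both belonged to Carma3xpA/+ d0 replicate 1, and the next, 0.9712, joined replicates 1 and 2 of Carma3xpA/+ d10. Carma3xpA/+ d0 replicate 1 also stood apart in Hox level: its 32 members summed to 10.3 FPKM, against 17.0 and 17.3 in the other 2 libraries of its group. Carma itself was not analysed here, so the genotype labels have no check from the targeted gene. Reads of overlapping records cannot be divided with certainty: the record of Hoxd3 (chr2:74711927-74748442) spans that of Hoxd4 (chr2:74711929-74729160), and whether the counting used the strand of the reads is not given in the sources used here.

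In WT cells the summed Hox level passed through a low at d3 and then rose. The 32 members together summed to 27.0, 28.9 and 20.1 FPKM in the 3 libraries at d0, 2.45, 3.38 and 4.91 at d3, 44.1, 37.2 and 40.2 at d6, and 43.0, 42.4 and 39.1 at d10. All d3 libraries lay below all others, and the d6 and d10 libraries overlapped. Not every member followed the sum: Hoxb1 averaged 1.533 FPKM in WT at d0, 1.197 at d3, 1.92 at d6 and 1.145 at d10. At d3 against d0, limma called 17 of 27 tested members lower and 0 higher, with a median difference of -0.56. Across all genes 27.7% were called lower and 27.7% higher in that step, with a median of -0.00. Among paralogues 9 to 13 it called 10 of 11 lower, among paralogues 5 to 8 it called 5 of 8, and among paralogues 1 to 4 it called 2 of 8.

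Part of the WT d0 signal lay at the posterior end. Hoxd13, a factor of digit and genital development, had 1.95, 1.54 and 1.30 FPKM in WT at d0, and between 0.153 and 0.340 FPKM at d3, d6 and d10. Hoxc13, which acts in hair and nail, had 1.15, 1.05 and 1.38 FPKM at d0 and at most 0.127 FPKM afterwards. Both genes had their highest group mean of all 8 groups in WT at d0. A list of 20 feeder fibroblast and mesenchyme genes, 19 of them in the table, summed to 150 to 169 FPKM in WT at d0 and to 34.3 to 42.0 FPKM at d3. The same list reached 2165 to 2228 FPKM in WT embryoid bodies at d10, so it does not measure feeder cells alone, and the part of feeder RNA in the d0 Hox values was not tested. In bulk samples such as these, fewer cells of a type and less RNA per cell cannot be told apart.

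Between d3 and d6 limma called 21 of 27 tested members higher in WT at d6 and 0 lower (median 0.96), where 35.4% of all genes were called higher (median 0.10). The strongest were anterior Hoxb genes. Hoxb2, which acts in rhombomere 4 and facial motor neurons, had 5.71, 5.51 and 5.30 FPKM in WT at d6, against 0.0359, 0.416 and 0.492 FPKM at d3 (difference 2.32 ± 0.18, adjusted p = 1.08e-09). Hoxb4, a factor that expands blood stem cells when supplied in excess, had 5.34, 3.81 and 3.87 FPKM at d6, against 0.0537, 0.0541 and 0.0727 FPKM at d3 (2.32 ± 0.19, adjusted p = 1.69e-09). The libraries of the 2 days did not overlap for either gene. Hoxc13 and Hoxd13 did not share in this rise: their d6 minus d3 differences were -0.05 ± 0.10 and -0.13 ± 0.12, with adjusted p of 0.694 and 0.36.

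From d6 to d10 the WT pattern moved toward the posterior end while its sum stayed level. limma called 7 of 27 tested members higher and 6 lower at d10, close to the 24.6% higher and 23.9% lower of all genes. The members divided by position: of paralogues 1 to 4 it called 0 higher and 3 lower of 8, and of paralogues 9 to 13 it called 5 higher and 1 lower of 11. Hoxd4, a gene of the hindbrain and neck vertebrae whose record overlaps that of Hoxd3, had 0.326, 0.417 and 0.571 FPKM in WT at d10, against 1.31, 1.16 and 1.19 FPKM at d6 (-0.63 ± 0.13, adjusted p = 0.000386). Hoxa11, which patterns the forearm and kidney, had 4.32, 4.70 and 4.44 FPKM at d10, against 0.674, 0.924 and 1.01 FPKM at d6 (1.56 ± 0.12, adjusted p = 2.03e-09). Neither gene's d10 libraries overlapped its d6 libraries. Clusters differed as well. In Hoxc, 4 of 5 were called higher and 0 lower, whereas 0 were called higher in Hoxd and 3 of 6 lower. Across the 27 genes, Spearman's rho between paralogue number and the d10 minus d6 difference was 0.61, a description only, since neighbouring genes of a cluster and all values of a library are not independent. Paralogues 9 to 13 held 41.4%, 42.5% and 45.7% of the summed Hox FPKM of the 3 WT libraries at d10, against 16.9%, 22.7% and 24.7% at d6. In WT at d0 their share had been as high as at d10, at 45.5%, 41.8% and 41.9%.

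**Figure D1:**
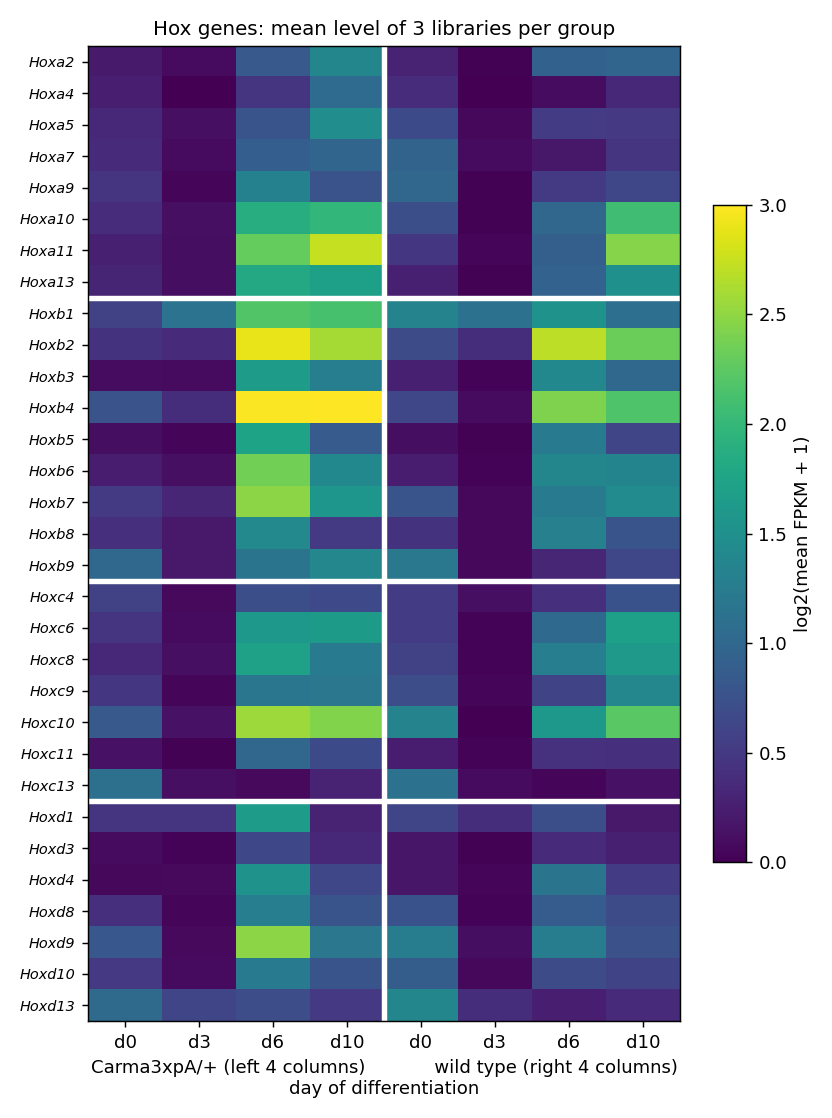
Mean level of 31 of the Hox genes in the 8 groups, as log2(mean FPKM of 3 libraries + 1); rows run by cluster and paralogue number, the left 4 columns are Carma3xpA/+ at d0, d3, d6 and d10 and the right 4 are WT on the same days. Both d3 columns are mostly dark, with Hoxb1 the brightest in each (1.205 FPKM in Carma3xpA/+ and 1.197 in WT). The highest mean, 6.99 FPKM, is that of Hoxb4 in Carma3xpA/+ at d10.

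In Carma3xpA/+ cells a low of the sum at d3 was likewise followed by a rise at d6. The members summed to 10.3, 17.0 and 17.3 FPKM in Carma3xpA/+ at d0, 4.67, 5.33 and 5.13 at d3, 74.8, 78.6 and 76.8 at d6, and 66.1, 45.3 and 60.9 at d10. Hoxb1 instead averaged 0.5075 FPKM at d0 and 1.205 at d3, a rise that was not called. At d3 against d0, limma called 12 of 27 lower and 0 higher (24.9% of all genes were lower, 27.5% higher), and 7 of 27 were called without Carma3xpA/+ d0 replicate 2. At d6 against d3 it called 25 of 27 higher and 0 lower, where 37.8% of all genes were higher, with a median of 1.51 against 0.11 for all genes. The 2 that were not called were again Hoxc13 (-0.05 ± 0.10) and Hoxd13 (0.09 ± 0.12). Of the 22 members that pass the filter on the other groups alone, limma called 20 higher. Without the filter it called 30 of 32 higher, with a median of 1.25. At d10 against d6 it called 2 higher and 12 lower, where 26.2% and 29.1% of all genes were higher and lower. The 2 higher genes were Hoxa11 (0.44 ± 0.12, adjusted p = 0.00477) and Hoxa2 (0.48 ± 0.16, adjusted p = 0.0145). The call of Hoxa11 was lost with a pseudocount of 0.1 and in a fit of only the groups compared (adjusted p up to 0.121), and that of Hoxa2 in such a fit and without Carma3xpA/+ d6 replicate 2 or d10 replicate 1 (adjusted p up to 0.15). The lower ones included 6 of 8 members of paralogues 5 to 8. Of the 22 members that pass the filter on the other groups alone, 2 were called higher and 8 lower in this step. Without the filter, 4 of 32 were called higher and 13 lower.

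The comparison of genotypes asks whether Hox levels differ between the Carma3xpA/+ and the WT libraries. Whether a difference comes from the interrupted Carma allele was not tested. At d6 the levels differed: the members summed to 74.8, 78.6 and 76.8 FPKM in Carma3xpA/+, against 44.1, 37.2 and 40.2 FPKM in WT, without overlap. limma called 18 of 27 tested members higher in Carma3xpA/+ and 0 lower, where 4.3% of all tested genes were called higher and 3.48% lower. The median difference was 0.57 over the tested members and 0.00 over all tested genes. Without the filter on low values it called 19 of all 32 members higher and 0 lower, beside 4.2% of all genes higher and 3.73% lower, and of the 22 members that pass the filter on the other 7 groups alone it called 13. A pseudocount of 0.1 in place of 1 reduced the 18 calls to 11.

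Along the clusters, the d6 calls lay mostly in central and posterior members. Without the filter on low values, 11 of 12 of paralogues 9 to 13 were called higher (median 0.80), 7 of 9 of paralogues 5 to 8 (median 0.50), and 1 of 11 of paralogues 1 to 4 (median 0.31). Of the members that pass the filter on the other 7 groups alone, 8 of 9, 5 of 6 and 0 of 7 were called in these classes. By cluster and without the filter, 5 of 9 were called in Hoxa, 4 of 9 in Hoxb, 5 of 7 in Hoxc and 5 of 7 in Hoxd. Of those that pass on the other groups, 3 of 5, 4 of 9, 4 of 5 and 2 of 3 were called. With a pseudocount of 0.1, the central members Hoxb5, Hoxc6, Hoxc8 and Hoxd8 lost their calls. The posterior members Hoxc9, Hoxc10 and Hoxd10 lost theirs as well. A difference between these classes was not tested. Across the 27 genes, Spearman's rho between paralogue number and the genotype difference was 0.31, a weak relation that is given as a description.

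**Figure D2:**
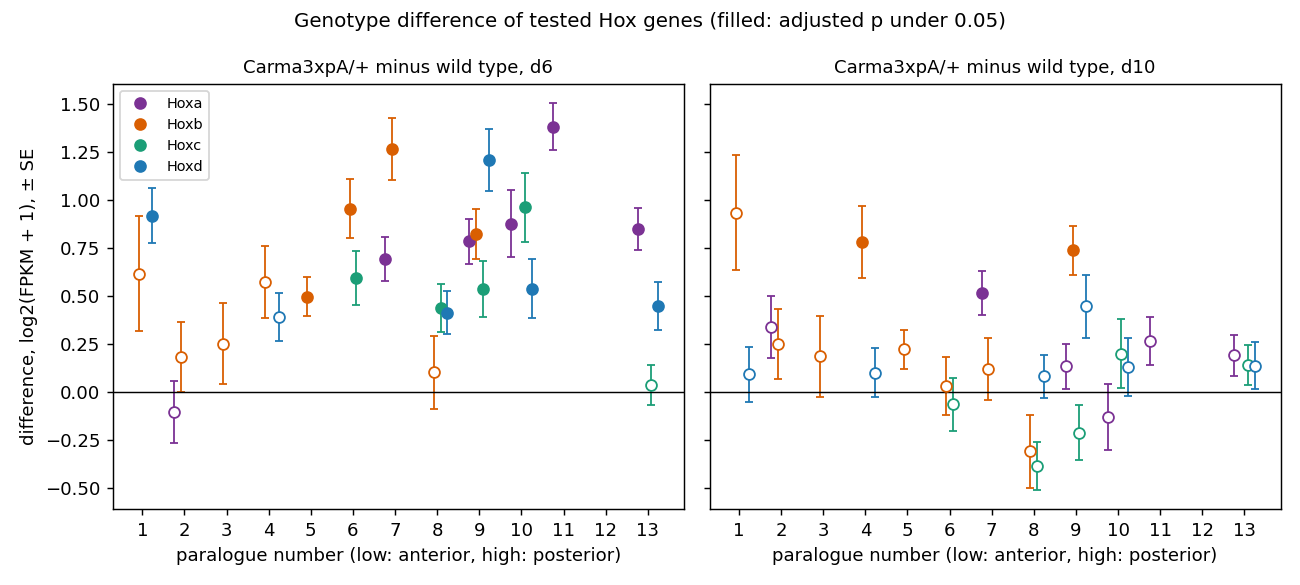
Genotype difference of 26 of the 27 tested Hox genes, Carma3xpA/+ minus WT on the log2(FPKM + 1) scale with its standard error, against paralogue number, at d6 (left) and d10 (right); colours mark the cluster and filled points have an adjusted p under 0.05. At d6, 18 points are filled and all of them lie above 0, against 3 filled points at d10.

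Among the posterior genes, Hoxa11 and Hoxd9 differed most at d6 on the log2(FPKM + 1) scale, whereas the ratio of group means was highest in Hoxb9. Hoxa11 (chr6:52242106-52245810) had 3.46, 4.93 and 3.33 FPKM in Carma3xpA/+, against 0.674, 0.924 and 1.01 FPKM in WT. Hoxd9 (chr2:74697727-74700208), which works with its paralogues in the lumbar spine and limb, had 4.04, 5.03 and 4.60 FPKM in Carma3xpA/+, against 1.34, 1.31 and 1.57 FPKM in WT. Every Carma3xpA/+ library was above every WT library for both genes. The ratio of group means was 4.49 for Hoxa11 (difference 1.38 ± 0.12, adjusted p = 1.12e-06) and 3.24 for Hoxd9 (1.21 ± 0.16, adjusted p = 9.71e-05). Hoxb9, which with its paralogues shapes the rib cage, had 1.27, 0.978 and 1.41 FPKM in Carma3xpA/+, against 0.261, 0.256 and 0.236 FPKM in WT (ratio 4.86, difference 0.82 ± 0.13, adjusted p = 0.000357). For Hoxa13, needed for digits and for the vessels of the allantois, the values were 2.21, 3.21 and 2.07 FPKM in Carma3xpA/+, against 0.974, 0.751 and 1.05 FPKM in WT (0.85 ± 0.11, adjusted p = 5.02e-05). Neither gene's groups overlapped.

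Hoxc10, a marker of the lumbar level, had 4.33, 5.94 and 4.46 FPKM in Carma3xpA/+ at d6, against 1.66, 2.17 and 2.23 FPKM in WT (0.96 ± 0.18, adjusted p = 0.00169), a call that a pseudocount of 0.1 took away (adjusted p = 0.0674). Hoxa10, known for its part in the uterus and lumbar spine, had 1.97, 3.54 and 2.49 FPKM in Carma3xpA/+, against 0.744, 0.811 and 1.41 FPKM in WT (0.88 ± 0.17, adjusted p = 0.0028). The groups did not overlap in either gene. The other posterior calls were Hoxa9 (0.78 ± 0.12, adjusted p = 0.00023), a factor of blood progenitors, and Hoxc9, Hoxd10 and Hoxd13, with differences between 0.45 and 0.54 and adjusted p between 0.0246 and 0.032. These last 3 were less secure: each was lost in 6 or 7 of 15 alternatives, most of which left out 1 library. Hoxc13 did not pass (0.04 ± 0.10, adjusted p = 0.914) and was near 0 in both genotypes, at 0.0546 FPKM in Carma3xpA/+ and 0.0267 in WT. Among the posterior members outside the filter, Hoxc11 had 0.547, 1.68 and 0.745 FPKM in Carma3xpA/+ at d6, against 0.173, 0.413 and 0.457 FPKM in WT, and was called when no filter was applied (0.53 ± 0.15, adjusted p = 0.0293).

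Among the central paralogues, Hoxb7 and Hoxb6 differed most on the log2(FPKM + 1) scale, whereas the ratio of group means was highest in Hoxa7. Hoxb7 had 4.13, 5.11 and 4.48 FPKM in Carma3xpA/+ at d6, against 1.65, 0.788 and 1.63 FPKM in WT (ratio 3.38, difference 1.26 ± 0.16, adjusted p = 5.69e-05). Hoxb6, a gene of lateral plate mesoderm, had 3.37, 5.61 and 3.44 FPKM in Carma3xpA/+, against 1.65, 1.60 and 1.56 FPKM in WT (ratio 2.58, difference 0.95 ± 0.15, adjusted p = 0.00044). In both genes all Carma3xpA/+ libraries lay above all WT libraries. Hoxa7 reached 0.983, 1.04 and 0.565 FPKM in Carma3xpA/+, against 0.199, 0.0613 and 0.176 FPKM in WT (ratio 5.93, difference 0.69 ± 0.11, adjusted p = 0.000573). Hoxb5, Hoxc6, Hoxc8 and Hoxd8 were also called, by 0.41 to 0.60, and each was lost in 3 or more of 15 alternatives, Hoxc8 in 8 of them. Hoxb8, whose loss alters grooming behaviour and microglia, was the tested central member that was not called: it had 2.34, 1.40 and 1.25 FPKM in Carma3xpA/+, against 2.13, 1.03 and 1.28 FPKM in WT, so that the groups overlapped (0.10 ± 0.19, adjusted p = 0.851). Hoxa5, a lung and respiratory tract factor that lay outside the filter, averaged 0.714 FPKM in Carma3xpA/+ and 0.445 FPKM in WT (0.25 ± 0.15, adjusted p = 0.388 without a filter).

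Among anterior genes, Hoxb4 and Hoxb2 were of the most abundant members at d6, whereas Hoxa2, Hoxa4, Hoxc4 and Hoxd3 averaged under 1 FPKM in both genotypes. Apart from Hoxd1, the anterior genes did not pass. Hoxd1 had 2.61, 1.40 and 2.43 FPKM in Carma3xpA/+, against 0.760, 0.731 and 0.442 FPKM in WT, without overlap (0.92 ± 0.14, adjusted p = 0.000381). Hoxb4 had 6.51, 7.27 and 6.90 FPKM in Carma3xpA/+, against 5.34, 3.81 and 3.87 FPKM in WT, and although its groups did not overlap it missed the threshold (0.57 ± 0.19, adjusted p = 0.0694). Hoxd4 was similar (0.39 ± 0.13, adjusted p = 0.0635). Hoxb1, a gene of hindbrain rhombomere 4, varied widely between replicates, at 4.64, 1.97 and 3.97 FPKM in Carma3xpA/+, against 2.81, 1.73 and 1.23 FPKM in WT (0.62 ± 0.30, adjusted p = 0.27). Among other tested anterior genes, Hoxa2, Hoxb2 and Hoxb3 had differences of -0.10, 0.18 and 0.25 with adjusted p of 0.576 or more. Outside the filter, Hoxa4, Hoxc4 and Hoxd3 averaged 0.378, 0.650 and 0.573 FPKM in Carma3xpA/+, against 0.0695, 0.327 and 0.289 FPKM in WT, and none passed without the filter (adjusted p of 0.175 or more).

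**Figure D3:**
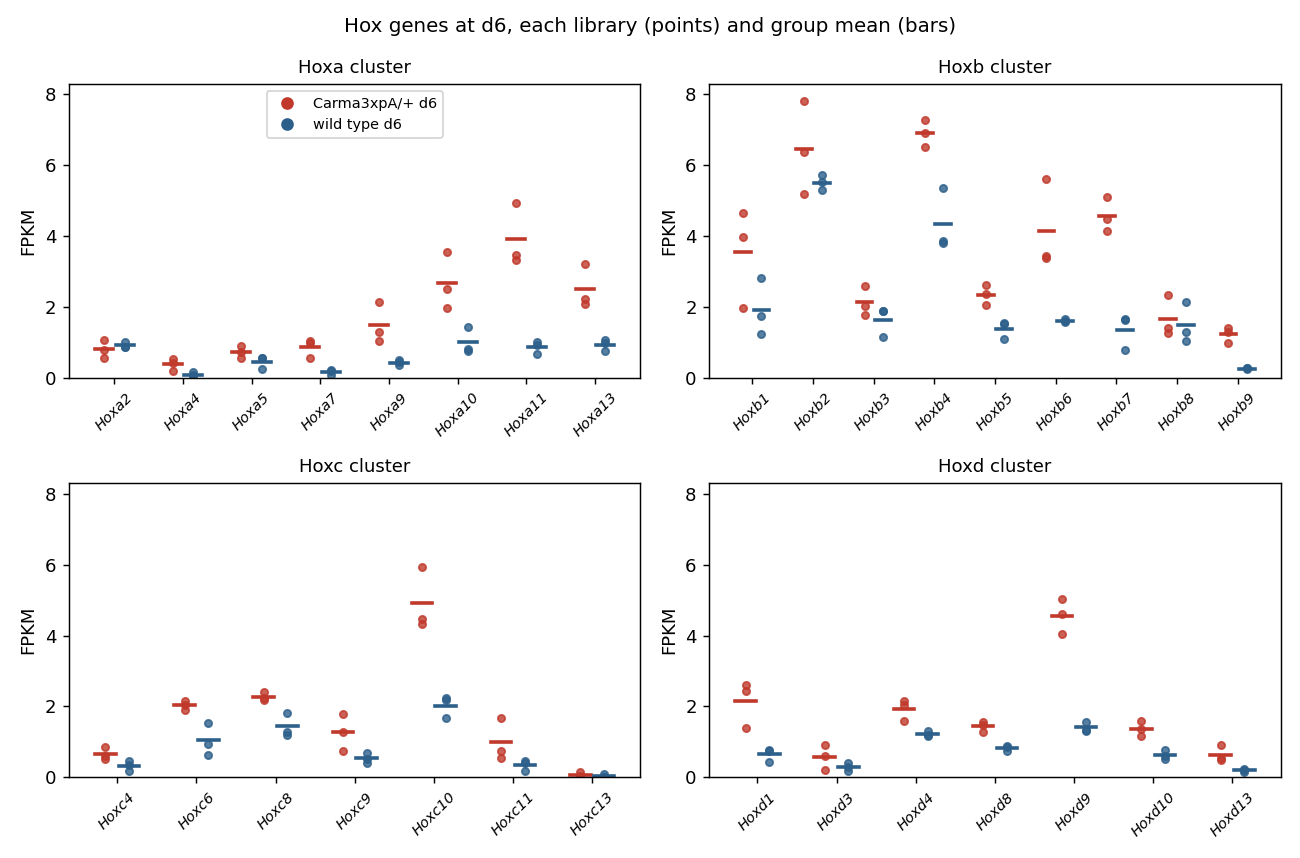
FPKM of 31 Hox genes at d6 in the 3 Carma3xpA/+ libraries (left of each pair) and the 3 WT libraries (right), with the group mean as a bar, by cluster. Hoxa11, Hoxb7, Hoxc10 and Hoxd9 have all Carma3xpA/+ points above all WT points, whereas the points of Hoxb8 overlap.

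Of the 18 d6 calls, 10 held under each of the 15 alternatives run for them, which included leaving out each of the 6 libraries: Hoxa7, Hoxa9, Hoxa10, Hoxa11, Hoxa13, Hoxb6, Hoxb7, Hoxb9, Hoxd1 and Hoxd9. Hoxa7, Hoxa9 and Hoxd1 among them entered the test only through their values in the Carma3xpA/+ d6 libraries, so their calls carry that selection. Within Carma3xpA/+ at d6, replicate 2 was the more posterior library: paralogues 9 to 13 held 39.8% of its summed Hox FPKM, against 29.3% and 30.6% in replicates 1 and 3 and 16.9% to 24.7% in WT. Without that library 14 of 27 members were called, and 13 without Carma3xpA/+ replicate 3 or without WT replicate 2.

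Start regions of members with and without this difference are shown to set the letters near the start of members that were called beside those of members that were not. RefSeq windows of 300 bases (build GRCm38.p6, 250 before and 50 from the annotated start on) matched 18 of the 32 members. They were searched on both strands for the Cdx motif TTTATG, the Pbx-Hox motif TGATTNAT and the retinoic acid receptor half-site AGGTCA, and matches are in capitals below. Hoxa11 and Hoxd9 had the largest d6 differences among members with a window, Hoxb4 the highest level, and Hoxb8 no called difference. The windows lie at chr6:52245761-52246060 on the minus strand for Hoxa11, and on the plus strand at chr2:74697513-74697812 for Hoxd9, chr11:96318017-96318316 for Hoxb4 and chr11:96281655-96281954 for Hoxb8. Each is written 5′ to 3′ on the strand of its gene.
Hoxa11: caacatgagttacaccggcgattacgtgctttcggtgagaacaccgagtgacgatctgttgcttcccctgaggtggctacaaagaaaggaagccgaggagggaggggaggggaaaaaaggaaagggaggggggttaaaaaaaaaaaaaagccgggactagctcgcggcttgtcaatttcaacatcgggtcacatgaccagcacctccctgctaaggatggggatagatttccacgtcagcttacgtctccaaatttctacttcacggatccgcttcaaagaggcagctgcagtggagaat
Hoxd9: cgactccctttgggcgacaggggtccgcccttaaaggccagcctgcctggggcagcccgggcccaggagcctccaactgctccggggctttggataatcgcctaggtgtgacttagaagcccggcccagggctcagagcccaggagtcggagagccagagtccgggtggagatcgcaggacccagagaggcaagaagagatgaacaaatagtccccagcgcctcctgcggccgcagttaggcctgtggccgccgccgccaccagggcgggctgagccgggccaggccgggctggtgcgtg
Hoxb4: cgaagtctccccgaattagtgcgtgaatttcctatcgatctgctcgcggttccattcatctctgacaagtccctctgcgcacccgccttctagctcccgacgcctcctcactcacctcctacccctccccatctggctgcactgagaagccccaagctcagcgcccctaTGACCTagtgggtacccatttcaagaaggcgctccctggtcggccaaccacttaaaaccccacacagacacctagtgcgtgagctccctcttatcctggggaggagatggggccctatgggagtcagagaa
Hoxb8: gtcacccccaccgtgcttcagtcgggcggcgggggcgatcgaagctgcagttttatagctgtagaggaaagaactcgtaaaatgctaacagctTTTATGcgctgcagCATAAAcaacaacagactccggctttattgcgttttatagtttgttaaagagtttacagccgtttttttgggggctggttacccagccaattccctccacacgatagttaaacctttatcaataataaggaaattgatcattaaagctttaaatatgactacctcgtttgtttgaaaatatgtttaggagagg
The windows of Hoxa11 and Hoxd9 held none of the 3 motifs. Hoxb4 had 1 retinoic acid receptor half-site, read on the opposite strand as TGACCT, and Hoxb8 had 2 Cdx motifs, 1 on each strand. The Cdx motif stood in 4 of 18 Hox windows (22.2%), against 11.9% of all 32851 windows of the table, the half-site in 7 (38.9%, against 16.3%) and the Pbx-Hox motif in 1 (5.56%, against 3.22%). Not every window lies at the start of its gene record. The RefSeq start was 3281, 3719, 15461 and 10049 bases downstream of it in Hoxa7, Hoxa9, Hoxc4 and Hoxd4. Among these, Hoxa7 and Hoxd4 hold Cdx motifs, and Hoxc4 and Hoxd4 hold half-sites. The motifs do not overlap one another in the windows printed. The Hox windows were also richer in CpG, with a median of 13.5 per window against 7.0, so base composition differs between the sets as well. A match describes letters in a window and not a bound site.

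At d10 fewer Hox genes were called between the genotypes, and they were not all among those of d6. limma called 3 of 27 members higher in Carma3xpA/+ and 0 lower, beside 4.95% of all genes higher and 5.91% lower (median 0.14 over the members, -0.03 over all genes). Hoxb9 had 2.20, 1.06 and 1.61 FPKM in Carma3xpA/+, against 0.632, 0.411 and 0.609 FPKM in WT (0.74 ± 0.13, adjusted p = 0.00054). Hoxa7 had 1.26, 0.722 and 0.935 FPKM in Carma3xpA/+, against 0.337, 0.383 and 0.396 FPKM in WT (0.52 ± 0.11, adjusted p = 0.00476). Hoxb4 had 8.91, 4.00 and 8.06 FPKM in Carma3xpA/+, against 3.91, 3.95 and 2.64 FPKM in WT (0.78 ± 0.19, adjusted p = 0.00931). No groups overlapped, although Hoxb4 in Carma3xpA/+ replicate 2 lay barely above the highest WT library. The call of Hoxa7 held under all 15 alternatives, that of Hoxb9 was lost in a fit of only the d10 groups (adjusted p = 0.0563), and that of Hoxb4 was lost in that fit and without WT replicate 3 or Carma3xpA/+ replicate 3.

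Carma3xpA/+ d10 replicate 2 differed from the other 2 libraries of its group in anterior genes. Paralogues 1 to 4 summed to 12.5 FPKM in it, against 31.6 and 26.4 FPKM in replicates 1 and 3, while paralogues 9 to 13 summed to 23.9 FPKM, against 20.9 and 21.7. Its values for Hoxb1 and Hoxb3 were 1.41 and 0.317 FPKM, against 4.85 and 2.25 FPKM in replicate 1 and 3.86 and 1.73 FPKM in replicate 3. Without that library limma called 8 of 27 members at d10, all higher, and without Carma3xpA/+ d0 replicate 1, which enters only through the shared variance, it called 7 (6 higher and 1 lower). Without Carma3xpA/+ d10 replicate 1 it called 5, with 3 higher and 2 lower. Of the 22 members that pass the filter on the other groups alone, 2 were called higher and 0 lower in the fit of all libraries. Without a filter, 6 of 32 members were higher and 1 lower, beside 4.78% and 6.95% of all genes. These included Hoxa5, with 2.30, 0.932 and 2.10 FPKM in Carma3xpA/+, against 0.422, 0.522 and 0.287 FPKM in WT (0.94 ± 0.15, adjusted p = 0.000165), and Hoxa4, with 1.37, 0.395 and 1.45 FPKM in Carma3xpA/+, against 0.155, 0.444 and 0.190 FPKM in WT (0.68 ± 0.15, adjusted p = 0.00457). The Hoxa5 libraries did not overlap, and those of Hoxa4 did, through replicate 2 of Carma3xpA/+. Several posterior genes that differed at d6 were close at d10: Hoxa11 had 5.33, 7.09 and 4.61 FPKM in Carma3xpA/+, against 4.32, 4.70 and 4.44 FPKM in WT (0.27 ± 0.12, adjusted p = 0.185), and Hoxa10 averaged 2.97 FPKM in Carma3xpA/+ and 3.23 FPKM in WT (-0.13 ± 0.17, adjusted p = 0.704).

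**Figure D4:**
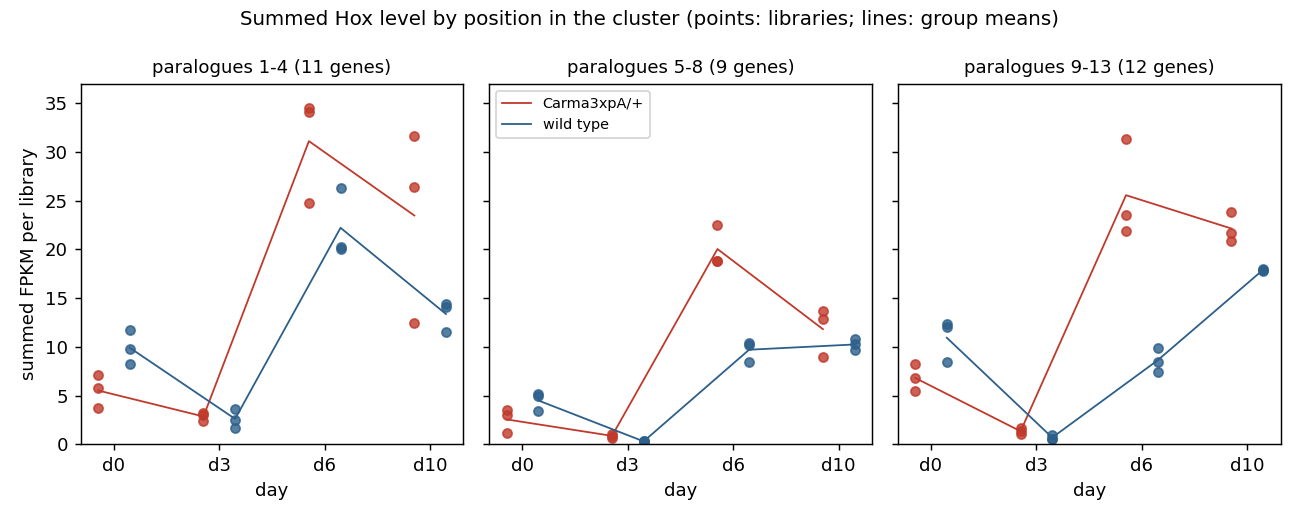
Summed FPKM of Hox genes per library by paralogue class (1 to 4, 5 to 8 and 9 to 13, with 11, 9 and 12 genes) over the 4 days; points are libraries, lines join group means, and Carma3xpA/+ is drawn left of WT on each day. Paralogues 9 to 13 reach 21.9 to 31.3 FPKM in Carma3xpA/+ at d6, against 7.46 to 9.92 FPKM in WT, and at d10 the low Carma3xpA/+ point in the left panel is replicate 2.

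Before d6 few Hox genes were called between the genotypes. At d3 limma called 0 of 27 members, and 0 had an unadjusted p under 0.05 (lowest 0.0817), beside 4.54% of all genes higher and 1.93% lower (6.47% in either direction). All 32 members together summed to 4.67, 5.33 and 5.13 FPKM in Carma3xpA/+ at d3, against 2.45, 3.38 and 4.91 FPKM in WT. At d0 they summed to 10.3, 17.0 and 17.3 FPKM in Carma3xpA/+, against 27.0, 28.9 and 20.1 FPKM in WT, without overlap. At that day limma called 0 higher and 5 lower, beside 9.53% higher and 9.29% lower of all genes. Without a filter it called 6 of 32 lower (9% of all genes). Of the 22 members that pass the filter on the other groups alone it called 2 lower, near the share of all genes. The 5 lower members included Hoxa7 (-0.58 ± 0.11, adjusted p = 0.00182), Hoxa9 (-0.53 ± 0.12, adjusted p = 0.00391), Hoxc10 (-0.56 ± 0.18, adjusted p = 0.0347) and Hoxd8 (-0.36 ± 0.11, adjusted p = 0.029). Hoxa7, Hoxa9 and Hoxd8 entered the test only through the Carma3xpA/+ d6 libraries. Hoxa7 had 0.263, 0.412 and 0.195 FPKM in Carma3xpA/+ at d0, against 0.982, 1.18 and 0.662 FPKM in WT, without overlap. A fit of only the d0 groups called 0 of 27 members and 4 of 13373 genes. In the fit over all groups, 3 members were called without Carma3xpA/+ d0 replicate 1 or WT d0 replicate 1, 2 without WT d0 replicate 2, and 8 without WT d0 replicate 3. The feeder fibroblast list summed to 71.5 to 156 FPKM in Carma3xpA/+ at d0, against 150 to 169 FPKM in WT, and its part in these values was not tested.

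The change of the genotype difference between days was tested directly. Counts over 27 tested members include those admitted by the Carma3xpA/+ d6 libraries, so the counts over all 32 without a filter and over the 22 that pass on the other groups follow. From d3 to d6 limma called 9 of 27 members with a more positive difference and 0 with a more negative one, where 0.785% and 1.88% of all genes were called. The largest were Hoxa11 (1.32 ± 0.17, adjusted p = 0.000365), Hoxd9 (1.24 ± 0.23, adjusted p = 0.00432) and Hoxb7 (1.01 ± 0.23, adjusted p = 0.0184). From d6 to d10 it called 9 with a more negative difference and 0 with a more positive one, where 2.71% and 1.51% of all genes were called, with Hoxb7 at -1.14 ± 0.23 and Hoxa11 at -1.11 ± 0.17. Without a filter the counts were 9 of 32 for each interval, and of the 22 members they were 6 from d3 to d6 and 7 from d6 to d10. In Hoxa11 the d10 minus d6 difference was 0.44 ± 0.12 in Carma3xpA/+ and 1.56 ± 0.12 in WT, and the change was larger in WT. The Carma3xpA/+ libraries of the 2 days overlapped for this gene. In Hoxb7 it was -0.91 ± 0.16 in Carma3xpA/+ and 0.23 ± 0.16 in WT. From d0 to d3 1 member, Hoxa7, was called with a more positive difference (0.59 ± 0.16, adjusted p = 0.047), where 2.07% of all genes were called so and 1.56% with a more negative one. That call did not survive the loss of single libraries: 0 members were called without any of 9 of the 12 libraries of d0 and d3, namely the 3 Carma3xpA/+ d3 and 3 WT d3 libraries, Carma3xpA/+ d0 replicate 3, and WT d0 replicates 1 and 2. The d6 groups are shared by the 2 later changes, which are therefore not independent of each other or of the d6 comparison. With a pseudocount of 0.1 the counts fell to 2 and 1. The d3 to d6 count was 4 without Carma3xpA/+ d3 replicate 1, and 5 without Carma3xpA/+ d3 replicate 2, WT d3 replicate 3 or WT d6 replicate 2.

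The Hoxb cluster lies on chromosome 11, whose genes were higher in Carma3xpA/+ at all 4 days. Among genes that averaged 5 FPKM or more, the median genotype difference on chromosome 11 (675 genes) was 0.18 at d0, 0.33 at d3, 0.31 at d6 and 0.27 at d10, against -0.02, -0.03, 0.00 and -0.01 on the other chromosomes (6488 genes). On chromosomes 2, 6 and 15, where the other clusters lie, the d6 medians were 0.00, -0.00 and -0.01. After the median of each chromosome was subtracted, 16 of 27 members were still called at d6. Hoxb5 and, on chromosome 2, Hoxd13 were lost (adjusted p = 0.282 and 0.089), and Hoxb6, Hoxb7 and Hoxb9 remained (adjusted p = 0.0103, 0.000217 and 0.00754). At d10 Hoxb4 and Hoxb9 remained as well (adjusted p = 0.0331 and 0.00709).

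Genes beside the clusters were compared in the same way. Of 25 flanking genes listed, 20 were tested, and at d6 1 was higher and 1 lower. Both counts are near the 4.3% of all genes called higher and 3.48% called lower. The higher one was Calcoco2, an autophagy receptor gene on the Hoxb side of chromosome 11 (chr11:96099326-96111964), with a mean of 1.81 FPKM in Carma3xpA/+ and 0.409 FPKM in WT (1.00 ± 0.22, adjusted p = 0.00705). It was already higher at d3, at 16.9 FPKM in Carma3xpA/+ and 4.25 FPKM in WT (1.76 ± 0.22, adjusted p = 3.79e-05), a day on which no Hoxb gene was called. Snx11, Cbx1 and Ttll6, also near Hoxb, were higher at d3 too (0.71, 0.54 and 0.41). The 4 calls of that day were 4 of 20, beside 4.54% of all genes higher. Among genes that averaged 5 FPKM or more, 29.2% on chromosome 11 were called higher at d3, against 2.27% on the other chromosomes. The lower one at d6 was Nfe2, a blood transcription factor gene near Hoxc, with 1.41 FPKM in Carma3xpA/+ and 3.08 FPKM in WT (-0.74 ± 0.11, adjusted p = 0.000186). Evx1, the homeobox gene beside Hoxa13, had 1.94 FPKM in Carma3xpA/+ and 0.713 FPKM in WT at d6 and did not pass (0.78, adjusted p = 0.249). At d10 2 were higher, Calcoco2 (1.67) and Cbx1 (0.36), and 0 lower, beside 4.95% and 5.91% of all genes. At d0 Atp5g3 was higher (0.49), and Cbx5, Atf2, Skap2 and Jazf1 were lower (-0.47 to -0.37). On that day 9.53% of all genes were called higher and 9.29% lower. The other tested neighbours, Atp5g2, Calcoco1, Chn1, Hibadh, Hnrnpa1, Lnpk, Mtx2, Smug1 and Snx10, were not called on any day.

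Cofactors and regulators of the clusters were counted at d6 beside the 4.3% of all genes called higher and 3.48% called lower. A count of 1 in a list of this size is near those shares. All 9 TALE cofactor genes were tested, with 0 higher and 1 lower (median -0.25): Pbx2 averaged 25.0 FPKM in Carma3xpA/+ and 33.4 FPKM in WT (-0.41 ± 0.12, adjusted p = 0.0356). Meis1, a Hox cofactor in blood and limb, was called at d10, at 4.48 FPKM in Carma3xpA/+ (0.59 ± 0.13, adjusted p = 0.00603). It was the 1 of the 9 called on that day, beside 4.95% of all genes higher and 5.91% lower. In WT, 6 of the 9 were higher at d6 than at d3, beside 35.4% of all genes, led by Meis1 (2.26) and Meis2 (2.21). Of 24 tested upstream regulators, 0 were higher and 1 was lower in Carma3xpA/+ at d6 (median 0.03). It was Gdf11, a ligand that advances posterior Hox expression in the trunk, with 2.85 FPKM in Carma3xpA/+ and 4.48 FPKM in WT (-0.51 ± 0.14, adjusted p = 0.0311). Cdx2, a caudal factor that binds the clusters, averaged 8.59 FPKM in Carma3xpA/+ and 3.28 FPKM in WT and missed the threshold (adjusted p = 0.0774). At d10 Aldh1a2, the retinoic acid synthesis gene, was higher (0.79 ± 0.19, adjusted p = 0.01), as was Gmnn (0.40), while Cyp26c1, which degrades retinoic acid, was lower (-0.39). These were 2 higher and 1 lower of the 24, beside 4.95% and 5.91% of all genes. At d0 1 of the 24 was higher and 6 were lower, beside 9.53% and 9.29% of all genes, on the day on which a fit of only its own groups called 4 of 13373 genes. At d3 0 of the 24 were called, beside 4.54% of all genes higher and 1.93% lower.

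Markers of tissues that express Hox genes were counted at d6 beside the 4.3% of all genes called higher and 3.48% called lower, and a count of 1 in a list of this size is near those shares. Of 16 lateral plate, allantois and limb mesoderm genes, 4 were higher and 1 lower. Tbx4, a gene of allantois and hindlimb, led them with a mean of 28.3 FPKM in Carma3xpA/+ and 4.57 FPKM in WT (2.37 ± 0.17, adjusted p = 1.26e-07), followed by Tbx3 (1.42), Pitx1 (1.06) and Twist1 (0.67), and Nr2f2 was lower (-0.38). The list summed to 294 to 344 FPKM in Carma3xpA/+, against 211 to 229 FPKM in WT. Tbx4 also lies on chromosome 11. Of 12 tested hindbrain and spinal cord genes 5 were lower and 0 higher, and the list summed to 26.2 to 27.3 FPKM in Carma3xpA/+, against 44.9 to 48.9 FPKM in WT. Forebrain and midbrain genes gave 5 lower and 0 higher of 11, with sums of 19.3 to 26.8 FPKM in Carma3xpA/+, against 34.5 to 39.7 FPKM in WT.

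Posterior axis progenitor genes gave 0 higher and 1 lower of 12, paraxial mesoderm genes 0 higher and 3 lower of 11, gut endoderm genes 2 higher and 1 lower of 16, blood genes 0 higher and 5 lower of 18, cardiac genes 0 higher and 4 lower of 20, and other homeobox genes 0 higher and 1 lower of 6. Pluripotency genes gave 4 higher and 0 lower of 15 at d6. The fibroblast and mesenchyme list had 1 of 19 higher and 7 lower, with sums of 315 to 369 FPKM in Carma3xpA/+, against 416 to 589 FPKM in WT. At d10 cardiac genes were higher in 13 of 20 and lower in 0, pluripotency genes in 8 of 15 and 0, and lateral plate genes in 5 of 16 with 1 lower, beside 4.95% of all genes higher and 5.91% lower. On that day hindbrain and spinal cord genes gave 0 higher and 6 lower of 12, forebrain and midbrain genes 0 and 2 of 11, fibroblast and mesenchyme genes 2 and 8 of 19, and gut endoderm genes 0 and 4 of 16. Blood genes and paraxial mesoderm genes gave 1 higher and 1 lower each, of 18 and 11, other homeobox genes 2 and 0 of 6, and posterior axis genes 0 and 0 of 12. The part of these differences in the Hox values was not tested.

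At the transcript level 40 transcripts of 33 Hox genes were listed, and 26 genes had a single one. Hoxa3 and Hoxd11, which had no gene record, were represented by a transcript each. The Hoxa3 transcript had 1.22, 0.629 and 0.851 FPKM in Carma3xpA/+ at d6, against 0.672, 0.615 and 0.486 FPKM in WT, and the groups overlapped. The Hoxd11 transcript had 0.105, 0.172 and 0.437 FPKM in Carma3xpA/+ at d6, against 0, 0 and 0.0759 FPKM in WT, all of them low. When the values of a gene's transcripts were summed in place of the gene value, limma called 16 members at d6, all higher in Carma3xpA/+.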

How the data were processed

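RNA of 24 libraries (8 groups of 3) was sequenced from poly(A)-selected, stranded libraries, per the labels' protocols. The values are FPKM per gene and per transcript as deposited by the authors. The submitters' processing notes name FastQC, cutadapt, HISAT2, StringTie and build mm10, without versions or a strand setting. The gene table holds 14737 protein-coding records. Values were not whole multiples of a read (the most frequent ratio between libraries held for 12 of 595 low genes), so depth is unknown and no count test was run.

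Differences were computed with limma 3.58.1 in R 4.3.3 (trend, 1 mean per group over all 24 libraries, 16 residual degrees of freedom) on log2(FPKM + 1), for genes with 1 FPKM or more in 3 or more libraries, in 13 comparisons, two-sided, each adjusted by Benjamini-Hochberg. On simulated data for the d6 genotype comparison of 13373 genes, 34 of 67 changes of 0.5, 57 of 67 of 1 and 66 of 66 of 2 (log2) were recovered, and 11 unchanged genes were called. Simulated errors were independent and normal with each gene's fitted spread, and the changed genes were random ones of any level. Recovery for low genes such as the members was not tested apart. Alternatives were a pseudocount of 0.1, no filter, median-of-ratios and quantile scaling, a fit of only the groups compared, a replicate block, summed transcripts, subtraction of each chromosome's median, and leaving out single libraries. Members were all rows with a Hoxa to Hoxd symbol. All are in the counts and sums, and values of 1 of them are not reported here. Members and gene lists were chosen with earlier results of these data known.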

Additional observations from a re-analysis of the deposited data

Results flagged for a closer look

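A test of the change in the genotype difference (Carma3xpA/+ minus WT) between consecutive days marked 19 results in Hox genes, all on the log2(FPKM + 1) scale and from limma. From d0 to d3 the difference changed by 0.589 in Hoxa7. From d3 to d6 it changed by 0.689 in Hoxa7, 0.757 in Hoxa9, 1.32 in Hoxa11 and 0.762 in Hoxa13. In the same interval it changed by 0.864 in Hoxb6, 1.01 in Hoxb7, 0.679 in Hoxb9, 0.854 in Hoxd1 and 1.24 in Hoxd9.

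From d6 to d10 the change was -0.649 in Hoxa9, -1 in Hoxa10, -1.11 in Hoxa11 and -0.657 in Hoxa13. It was -0.922 in Hoxb6, -1.14 in Hoxb7, -0.82 in Hoxc8, -0.748 in Hoxc9 and -0.826 in Hoxd1. None of the 19 kept its call under every alternative run for it. Both later intervals share the d6 libraries. Of all genes, 2.07% were called with a more positive and 1.56% with a more negative difference from d0 to d3. These shares were 0.785% and 1.88% from d3 to d6, and 1.51% and 2.71% from d6 to d10. Hoxa7, Hoxa9 and Hoxd1 passed the filter only through the Carma3xpA/+ d6 libraries. Of the 22 members that pass on the other groups alone, 0, 6 and 7 were called from d0 to d3, d3 to d6 and d6 to d10.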

How the results depend on the processing

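No Hox result turned its direction. Numbers of Hox genes called moved as follows. With a pseudocount of 0.1 they were 1 at d3, 11 at d6, and 3, 2 and 1 for the 3 changes of the genotype difference in order of time. Without a filter 7 were called at d10. Median-of-ratios scaling gave 5 at d10 and 2 for the first change. Quantile normalization gave 8 at d10, 2 for the first change and 5 for the third. A fit of only the groups compared gave 0 at d0, 2 at d3, 14 for the second change and 4 for the third. Summed transcripts gave 2, 5 and 5 for the changes. Subtracting chromosome medians gave 8 at d0, 5 at d10 and 2 for the first change. The causes were not tested. Replicate numbers did not pair the libraries: with a replicate block the first change went to 0 calls, and no other Hox count moved by over 1.5 times.

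Leaving out single libraries gave 16 to 18, 21 to 22 and 11 to 14 calls for the WT steps, 7 to 12, 25 to 25 and 13 to 15 for the Carma3xpA/+ steps, 2 to 8, 0 to 0, 13 to 20 and 2 to 8 for the genotype at d0, d3, d6 and d10, and 0 to 4, 4 to 10 and 6 to 12 for the changes. Over all genes, a fit of only the groups compared called 4 at d0 (2516 in the fit of all groups), 2271 at d3 (865), 703 at d10 (1453), 171 (485) for the first change and 1117 (356) for the second. Summed transcripts called 319 and 220 for these changes, and a pseudocount of 0.1 called 235 (565) for the third. Leaving out single libraries moved the all-gene counts to between 1338 and 3606 at d0, 519 and 1563 at d3, 592 and 1709 (1040) at d6, 856 and 2391 at d10, and 191 and 1265, 213 and 710, and 391 and 1077 for the changes. The highest at d3, d6, d10 and the later changes came without Carma3xpA/+ d0 replicate 1, and the lowest at d6 without WT d6 replicate 2. Quantile normalization changed the higher and lower calls to 3573 and 4488 for WT d6 against d3 (4733 and 3305), to 3794 and 4521 for Carma3xpA/+ d6 against d3 (5049 and 3412), to 836 and 687 at d10 (662 and 791), and to 331 and 353 for the third change (202 and 363). Low FPKM limits precision for most members.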
